A study of Mus musculus with 20 samples.

Results

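Astrocytes are the glial cells that take up glutamate, carry water and ions between neurons and vessels, and change their expression when brain tissue is disturbed. A set of 35 genes of astrocyte identity and reactivity was followed in hippocampal RNA of mice that carried or lacked amyloid pathology and the microRNA miR-34a. The set was drawn up with earlier results of these data known, from genes tied to astrocytes by textbook knowledge. It held 12 identity genes, 9 genes of the pan-reactive panel, 3 genes of the A1 panel, 8 genes of the A2 panel and 3 other genes of reactivity. All 35 were found among the 39056 genes of the count table, and all 35 passed the filter on low counts as part of the 16107 genes tested. Lcn2, Steap4, Ptx3 and Tgm1 passed only through the Tg-SwDI mice, because fewer than 5 Non-Tg mice reached the 0.483 CPM (counts scaled to library size) that the filter asked for.

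The left hippocampus of 20 female C57BL/6 mice aged 12 to 13 months was sequenced after behavioural tests and perfusion, with 1 library per mouse and 5 mice in each group. Each group combined a miR-34a genotype (WT or KO) with the transgene (Tg-SwDI) or its absence in littermates (Non-Tg), so that the groups are called WT Non-Tg, KO Non-Tg, WT Tg-SwDI and KO Tg-SwDI. Tg-SwDI mice express human APP with the Swedish, Dutch and Iowa mutations from a Thy1 promoter, which is active in neurons, and the miR-34a KO was constitutive and not limited to a cell type. The libraries were made from polyadenylated RNA, which does not capture mature microRNAs, and miR-34a itself was not analysed here. Total counts lay between 19549622 and 21066868 per mouse.

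A few libraries stood apart before any comparison was made. KO Tg-SwDI replicate 8 had 14.6% of its counts on mitochondrial genes, against 6.94% to 8.76% in the other 19 mice. The summed level of 15 choroid plexus markers, led by Ttr, ranged from 299.7 to 6988 CPM. It was at 299.7 to 754 CPM in all 5 KO Non-Tg mice. It was also low in WT Non-Tg replicates 3 and 6 (476 and 317 CPM), WT Tg-SwDI replicate 7 (415 CPM) and KO Tg-SwDI replicate 2 (426 CPM), and it was at 3099 CPM or more in the other 11 mice. Counts of genes called are therefore also given without replicate 8 and with this marker level as a covariate. In KO mice the level was low in all Non-Tg mice and, apart from replicate 2, high in Tg-SwDI mice. The fit with the covariate therefore separates the marker level from the transgene poorly in KO mice.

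Healthy astrocytes are recognised by glutamate transporters, glutamine synthetase, gap junction proteins and the water channel Aqp4, which sits in the endfeet around vessels. On injury, inflammation or amyloid deposition they enlarge, build more intermediate filaments from Gfap and Vim, and induce secreted and surface proteins. Panels of such genes were defined in mouse astrocytes after lipopolysaccharide and after stroke: pan-reactive genes rose in both, A1 genes in the former and A2 genes in the latter. Microglial cytokines and complement, and cytokines that act through Stat3, are known inducers. MicroRNAs act by pairing the bases at their 5′ end with sites in the 3′UTR of messenger RNAs.

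The mature miR-34a is shown because its loss is the genotype compared, and the sites that match its seed show which of the 35 messages could pair with it. Capitals in the microRNA mark the seed (bases 2 to 8), from RefSeq on GRCm38.p6, chr4:150068473-150068494, plus strand.
miR-34a-5p: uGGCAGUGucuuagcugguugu
The 7 bases that pair with the seed, CACTGCC, were searched on the sense strand of the longest 3′UTR among each gene's principal transcripts in GENCODE M21. They were found in 3 of the 35 genes (8.57%), Aqp4, Slc1a2 and S1pr3, against 2801 of 20996 genes with a 3′UTR (13.3%). Slc1a2 held 1 match, in the last of its 11 exons at chr2:102785740-102785746 (GRCm38), and S1pr3 held 2 in exon 2, at chr13:51420152-51420158 and chr13:51421478-51421484. The second match in S1pr3 was followed by an A, the longer form of a seed match. Capitals mark the match.
Slc1a2: cagttCACTGCCctcgc
S1pr3 first: cggtgCACTGCCttcgg
S1pr3 second: taggtCACTGCCaagaa
A match is a description of letters, and pairing was not measured.

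Stat3 and its relatives bind the letters TTCNNNGAA, which read the same on both strands. RefSeq windows from 250 bases before to 50 bases after a start (GRCm38.p6) were held for 29 of the 35 genes, in 35 windows. The motif was in 6 of the 35 windows (17.1%), each from a different gene, against 2726 of 32851 windows of all genes (8.30%). The genes were Gfap, Steap4, Tgm1, Aldoc, Slc1a3 and Emp1, and the first match of each is shown on the strand of the gene with the motif in capitals.
Gfap chr11:102897194-102897202: gggtgcTTCCAGGAAgtcagg
Steap4 chr5:7960356-7960364: gaactcTTCCCGGAAactttg
Tgm1 chr14:55713657-55713665: cctcagTTCCTAGAAaggaga
Aldoc chr11:78324074-78324082: gccagaTTCAGTGAAagaaga
Slc1a3 chr15:8710895-8710903: ggatccTTCCAAGAAatttca
Emp1 chr6:135362811-135362819: acagggTTCTTTGAAttgatg
No binding was measured.

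Levels between genes were compared as CPM per kilobase of exon (GENCODE M21). In WT Non-Tg mice the order was led by Glul at 490.2 CPM per kilobase, Aldoc at 257, Slc1a2 at 199 and Gfap at 91.8. The other identity genes lay between 8.49 for Sox9 and 76.95 for S100b. Most reactivity genes were far lower, with Tgm1 at 0.0607 and Lcn2 at 0.0946 CPM per kilobase. In KO Tg-SwDI mice Glul was at 538 and Gfap at 405 CPM per kilobase, so that Gfap stood above Aldoc (314) and Slc1a2 (228).

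The transgene was compared within each miR-34a genotype, which asks how the astrocyte genes responded to amyloid pathology with and without the microRNA. In WT mice, 15 of the 35 genes were higher with the transgene and 0 were lower, against 3.94% of all genes tested higher and 0.466% lower. In KO mice, 18 were higher and 0 lower, against 12.5% of all genes higher and 8.31% lower. Every Tg-SwDI mouse lay above every Non-Tg mouse for 19 genes in WT (5.1% of all genes) and for 17 in KO mice (8.47%). Median log2 fold changes were 0.29 in WT and 0.41 in KO mice, beside medians of 0.000032 and -0.0048 over all genes tested. FDR denotes the Benjamini-Hochberg adjusted p of edgeR's quasi-likelihood test over the genes tested, and a gene was called at an FDR under 0.05. Because whole tissue was sequenced, a change in the number of cells of a type and a change in RNA per cell cannot be told apart. Without the 4 genes that passed the filter only through Tg-SwDI mice, 13 of 31 genes were called higher in WT and 15 in KO mice, and the medians were 0.28 and 0.30. The groups then did not overlap for 17 genes in WT and 14 in KO mice. Both comparisons are shown in the plot of transgene effects by gene.

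**Figure D1:**
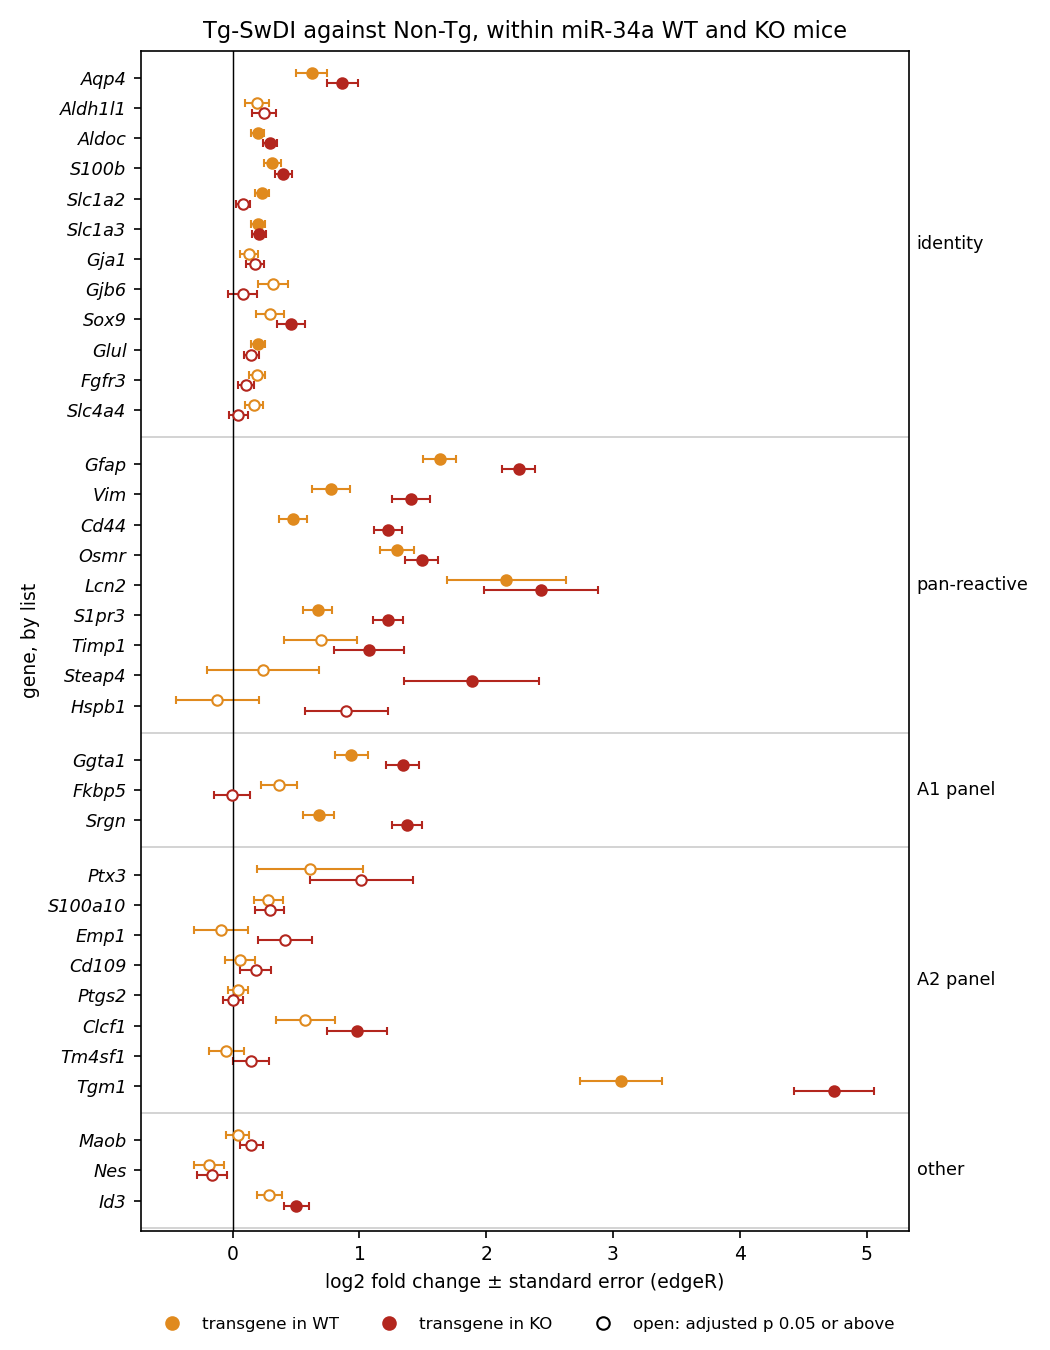
Log2 fold change of Tg-SwDI over Non-Tg mice (x axis, points with standard errors from edgeR) for the 35 genes by list (y axis), in miR-34a WT mice (orange) and KO mice (red). Filled points have an FDR under 0.05. Tgm1, Lcn2 and Gfap lie farthest to the right, and the identity genes lie between 0.045 and 0.87.

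Identity genes had small fold changes. Of the 12, 6 were called higher in WT mice (Aqp4, Aldoc, S100b, Slc1a2, Slc1a3 and Glul) and 5 in KO mice (Aqp4, Aldoc, S100b, Slc1a3 and Sox9). Of all genes tested, 3.94% were higher in WT and 12.5% in KO mice. The median log2 fold change of the 12 identity genes was 0.20 in WT and 0.19 in KO mice.

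Aqp4, the water channel of perivascular endfeet, moved most of the 12. It was at 187, 162, 181, 169 and 201 CPM in WT Non-Tg animals and 210.3, 173, 182, 194 and 178 CPM in KO Non-Tg animals. The WT Tg-SwDI mice were at 209, 314, 279, 293 and 291 CPM and the KO Tg-SwDI mice at 326, 354, 457, 283 and 286 CPM. WT Tg-SwDI replicate 3 was the lowest with the transgene, and it was just above the highest WT Non-Tg mouse and below the highest KO Non-Tg mouse. The transgene effect was a log2 fold change of 0.62 (standard error 0.12, edgeR FDR = 0.00238) in WT and 0.87 (0.12, FDR = 2.84e-05) in KO mice. Of the 7 genes of the dystrophin complex that holds Aqp4 in endfeet, 0 were called in WT mice. In KO mice Dag1 rose by a log2 of 0.19 and Dmd fell by 0.23. Such counts are near the shares of all genes tested, 3.94% higher in WT and 12.5% higher and 8.31% lower in KO mice.

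Slc1a2 (ENSMUSG00000005089.15, chr2:102658659-102790784, plus strand), the main glutamate transporter of the forebrain, was at 2609, 2607, 2528, 2579.7 and 2730.1 CPM in WT Non-Tg mice and 2919.5, 2832, 2834, 2697 and 2848 CPM in KO Non-Tg mice. With the transgene it was at 2878, 2868, 2944, 3386 and 3219 CPM in WT and 2818, 3346, 3056, 2850.1 and 2878 CPM in KO mice. WT Tg-SwDI mice lay above all WT Non-Tg mice, while the groups of KO mice overlapped. The log2 fold change was 0.23 (standard error 0.055, edgeR FDR = 0.0109) in WT and 0.081 (95% interval -0.027 to 0.19, FDR = 0.318) in KO mice. The difference between these effects was not past the threshold (log2 -0.15, FDR = 0.329). The call in WT mice was lost without WT Tg-SwDI replicate 6, the highest of its group.

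Slc1a3 (ENSMUSG00000005360.14, chr15:8634124-8710764, minus strand), the other astrocytic glutamate transporter, was at 673, 626, 638, 638 and 682 CPM in WT Non-Tg mice and 691, 786, 656, 667 and 676 CPM in KO Non-Tg mice. The Tg-SwDI mice were at 718, 739, 731, 792 and 751 CPM (WT) and 773, 909.7, 769.7, 763 and 791 CPM (KO). Tg-SwDI and Non-Tg mice overlapped in KO but not in WT mice. The log2 fold change was 0.20 (FDR = 0.0381) in WT and 0.20 (FDR = 0.00979) in KO mice, and the call in WT mice held in 18 of 30 alternative settings.

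Aldoc (ENSMUSG00000017390.15, chr11:78322968-78327781, plus strand), the glycolytic aldolase of astrocytes, was at 889, 805, 791, 835 and 880.1 CPM in WT Non-Tg mice and 814, 888, 801, 810.1 and 855 CPM in KO Non-Tg mice. In Tg-SwDI mice it was at 956, 1020.2, 987, 922 and 928 CPM (WT) and 981, 1109, 1093, 1019 and 917 CPM (KO). Every Tg-SwDI mouse lay above every Non-Tg mouse of its genotype. The log2 fold change was 0.20 (FDR = 0.0329) in WT, called in 20 of 30 alternative settings, and 0.30 (FDR = 0.000249) in KO mice, called in all 30.

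S100b (ENSMUSG00000033208.7, chr10:76253853-76261159, plus strand), a calcium-binding protein that astrocytes also secrete, was at 115, 107, 112, 123 and 114 CPM in WT Non-Tg mice and 107, 118, 105, 105 and 106 CPM in KO Non-Tg mice. Tg-SwDI mice were at 129.7, 140.4, 156, 139 and 143 CPM (WT) and 147, 169, 143, 132 and 122 CPM (KO), again without overlap within a genotype. The log2 fold change was 0.31 (FDR = 0.00308) in WT and 0.40 (FDR = 7.65e-05) in KO mice. S100b overlaps Dip2a on the other strand, and the strand setting of the counting is not given in the sources used here.

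Glul, glutamine synthetase, was at 1629 ± 27.6 CPM in WT Non-Tg and 1869 ± 147 CPM in WT Tg-SwDI mice (mean ± SD, n = 5 mice in this and every following mean). Its log2 fold change was 0.20 (FDR = 0.0369) in WT and 0.15 (FDR = 0.0591) in KO mice, and the call in WT mice held in 19 of 30 settings. Sox9, the transcription factor of the astrocyte lineage, was at 30.1 ± 3.74 CPM in KO Non-Tg and 41.5 ± 6.18 CPM in KO Tg-SwDI mice. It rose by a log2 of 0.46 (FDR = 0.00553) in KO mice, and it was not called with the choroid plexus marker level as a covariate (FDR = 0.0957). The remaining 5 identity genes were called in no comparison. Aldh1l1, a folate enzyme, was at 56.7 ± 2.58 and 64.7 ± 5.05 CPM in WT mice without and with the transgene. Connexin genes were in the same position, with Gja1 at 185 ± 6.33 and 203 ± 23.2 CPM and Gjb6 at 60.6 ± 6.31 and 75.5 ± 7.93 CPM. The growth factor receptor Fgfr3 was at 129 ± 7.96 and 147 ± 7.805 CPM, and the bicarbonate cotransporter Slc4a4 at 153 ± 13.8 and 173 ± 9.56 CPM. Their log2 fold changes in WT mice lay between 0.13 and 0.32, with an upper 95% limit of 0.54 for Gjb6. Values of the 6 most abundant identity genes are in the plot of identity genes by mouse.

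**Figure D2:**
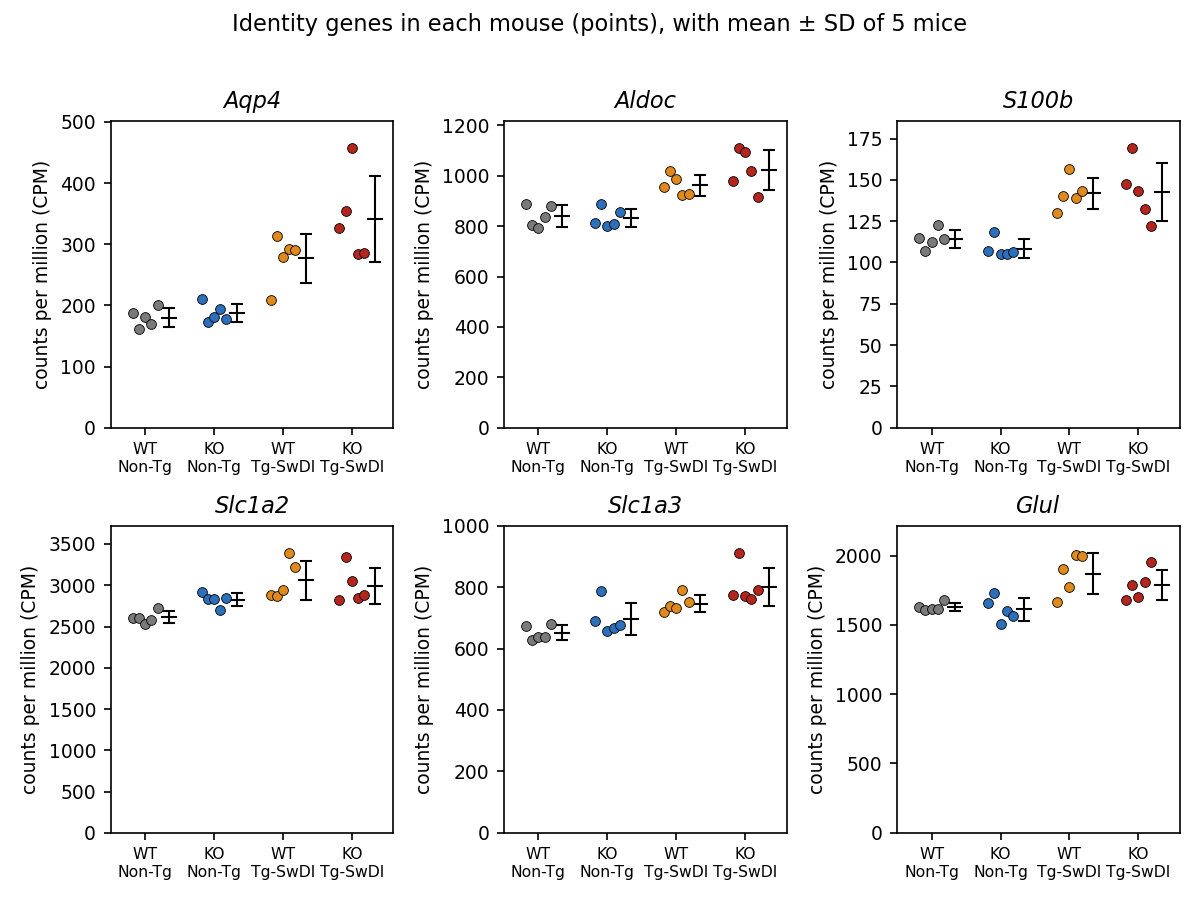
CPM (y axis, from 0) of Aqp4, Aldoc, S100b, Slc1a2, Slc1a3 and Glul in each mouse (points) of the 4 groups (x axis), with mean ± SD of 5 mice beside the points. The points of WT Tg-SwDI mice lie above those of WT Non-Tg mice for Aqp4, Aldoc, S100b, Slc1a2 and Slc1a3, and Non-Tg and Tg-SwDI mice of the KO overlap for Slc1a2, Slc1a3 and Glul.

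Most pan-reactive genes rose with the transgene. In WT mice 6 of 9 were called higher (Gfap, Vim, Cd44, Osmr, Lcn2 and S1pr3), with a median log2 fold change of 0.69. In KO mice 8 of 9 were called higher, with Timp1 and Steap4 added, and the median was 1.41. Hspb1 was called in neither. Of all genes tested, 3.94% were higher in WT and 12.5% in KO mice. Lcn2 and Steap4 passed the filter on low counts only through Tg-SwDI mice, and without them 5 of 7 were called in WT and 6 of 7 in KO mice, with medians of 0.69 and 1.23.

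Gfap (ENSMUSG00000020932.14, chr11:102887336-102900912, minus strand), the intermediate filament that marks astrocytes, was at 497, 335, 372, 356 and 378 CPM in WT Non-Tg mice and 346, 379, 353, 354 and 353 CPM in KO Non-Tg mice. It was at 1042, 1336, 1270.2, 1216 and 1137 CPM in WT Tg-SwDI mice and 1531, 1771, 2252, 1227 and 1752 CPM in KO Tg-SwDI mice. The lowest Tg-SwDI mouse was far above the highest Non-Tg mouse in either genotype. Gfap was 3.098-fold higher in WT (log2 1.63, standard error 0.13, edgeR FDR = 2.29e-08) and 4.78-fold higher in KO mice (log2 2.26, standard error 0.13, FDR = 8.29e-11).

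Vim (ENSMUSG00000026728.9, chr2:13573927-13582826, plus strand), the filament that assembles with Gfap, was at 52.4, 44.9, 62.6, 49.1 and 57.7 CPM in WT Non-Tg mice and 56.7, 62.2, 47.3, 44.9 and 41.99 CPM in KO Non-Tg mice. In Tg-SwDI mice it was at 93.7, 95.03, 86.3, 96.7 and 85.6 CPM (WT) and 129, 133, 192, 95.2 and 122 CPM (KO). No Tg-SwDI mouse overlapped the Non-Tg mice, and KO Tg-SwDI replicate 3 was well above the rest. Vim rose 1.71-fold (FDR = 0.0029) in WT and 2.65-fold (FDR = 1.69e-06) in KO mice. Vascular cells and microglia are known to express Vim too.

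Cd44 (ENSMUSG00000005087.17, chr2:102811141-102901665, minus strand), the hyaluronan receptor, which immune cells also carry, was at 8.98, 7.39, 6.34, 8.15 and 8.11 CPM in WT Non-Tg mice and 7.702, 7.11, 6.71, 7.004 and 6.39 CPM in KO Non-Tg mice. It was at 9.53, 11.8, 11.5, 10.3 and 11.1 CPM in WT Tg-SwDI mice and 13.4, 18.4, 19.2, 12.8 and 17.7 CPM in KO Tg-SwDI mice, and the 4 groups overlapped only among the Non-Tg mice. The rise was 1.39-fold (FDR = 0.00832) in WT and 2.33-fold (FDR = 4.57e-09) in KO mice.

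S1pr3 (ENSMUSG00000067586.3, chr13:51408639-51422797, plus strand), a receptor for the lipid sphingosine phosphate and the carrier of the seed matches shown above, was at 9.79, 8.28, 9.58, 9.65 and 10.6 CPM in WT Non-Tg mice and 10.7, 10.3, 9.94, 7.63 and 8.37 CPM in KO Non-Tg mice. Tg-SwDI mice were at 15.2, 15.3, 14.9, 16.4 and 14.5 CPM (WT) and 22.7, 27.97, 24.3, 18.4 and 16.2 CPM (KO), all above the Non-Tg mice. It rose 1.59-fold (FDR = 0.000344) in WT and 2.34-fold (FDR = 1.12e-08) in KO mice.

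Osmr (ENSMUSG00000022146.12, chr15:6813577-6874969, minus strand), the receptor for oncostatin M, was at 9.08, 6.65, 8.69, 6.15 and 7.88 CPM in WT Non-Tg mice and 8.47, 8.68, 5.79, 7.68 and 7.401 CPM in KO Non-Tg mice. It was at 18.1, 21.8, 18.2, 21.11 and 15.3 CPM in WT Tg-SwDI mice and 21.5, 27.2, 21.7, 17.9 and 18.6 CPM in KO Tg-SwDI mice, with no overlap between Non-Tg and Tg-SwDI mice. The rise was 2.46-fold (FDR = 1.60e-07) in WT and 2.81-fold (FDR = 5.16e-09) in KO mice.

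Lcn2 (ENSMUSG00000026822.14, chr2:32384633-32388252, minus strand), a secreted lipocalin that binds iron carriers, rested on few counts: 1 to 14 in each Non-Tg mouse and 13 to 40 in each Tg-SwDI mouse. It was at 0.473, 0.0992, 0.235, 0.09995 and 0.334 CPM in WT Non-Tg mice and 0.335, 0.664, 0.0965, 0.192 and 0.0484 CPM in KO Non-Tg mice. Tg-SwDI mice were at 1.83, 0.804, 1.18, 1.26 and 0.622 CPM (WT) and 1.799, 1.51, 1.21, 0.667 and 2.203 CPM (KO). Tg-SwDI mice lay above the Non-Tg mice of their genotype, but in KO mice only just, with 13 counts in the lowest Tg-SwDI mouse and 14 counts in the highest Non-Tg mouse. In the fit without the filter, which Lcn2 passed only through Tg-SwDI mice, the log2 fold change was 2.15 (edgeR FDR = 0.0118) in WT and 2.44 (FDR = 0.000931) in KO mice.

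Timp1, an inhibitor of matrix metalloproteinases, was at 0.638 ± 0.177, 0.671 ± 0.154, 1.03 ± 0.142 and 1.41 ± 0.778 CPM in WT Non-Tg, KO Non-Tg, WT Tg-SwDI and KO Tg-SwDI mice. It was called in KO mice only (log2 1.08, FDR = 0.00715, against 0.69 and FDR = 0.233 in WT mice), and the difference between the effects had an FDR of 0.656. Timp1 lies within Syn1, a neuronal gene on the other strand with 295706 counts over all mice against 385 for Timp1, so its value is uncertain. The metalloreductase Steap4 was at 0.708 ± 0.328, 0.2396 ± 0.218, 0.838 ± 0.606 and 0.905 ± 0.131 CPM in the same order, with 0 to 11 counts in the KO Non-Tg mice. It too passed only through Tg-SwDI mice, and without the filter it was called in KO mice (log2 1.89, edgeR FDR = 0.0380). Neither Timp1 (FDR = 0.108) nor Steap4 was called with the choroid plexus covariate. The small heat shock protein Hspb1 was at 4.16 ± 0.9101 CPM in KO Non-Tg and 7.72 ± 5.58 CPM in KO Tg-SwDI mice (FDR = 0.0644), and KO Tg-SwDI replicate 3 at 17.6 CPM set that spread.

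**Figure D3:**
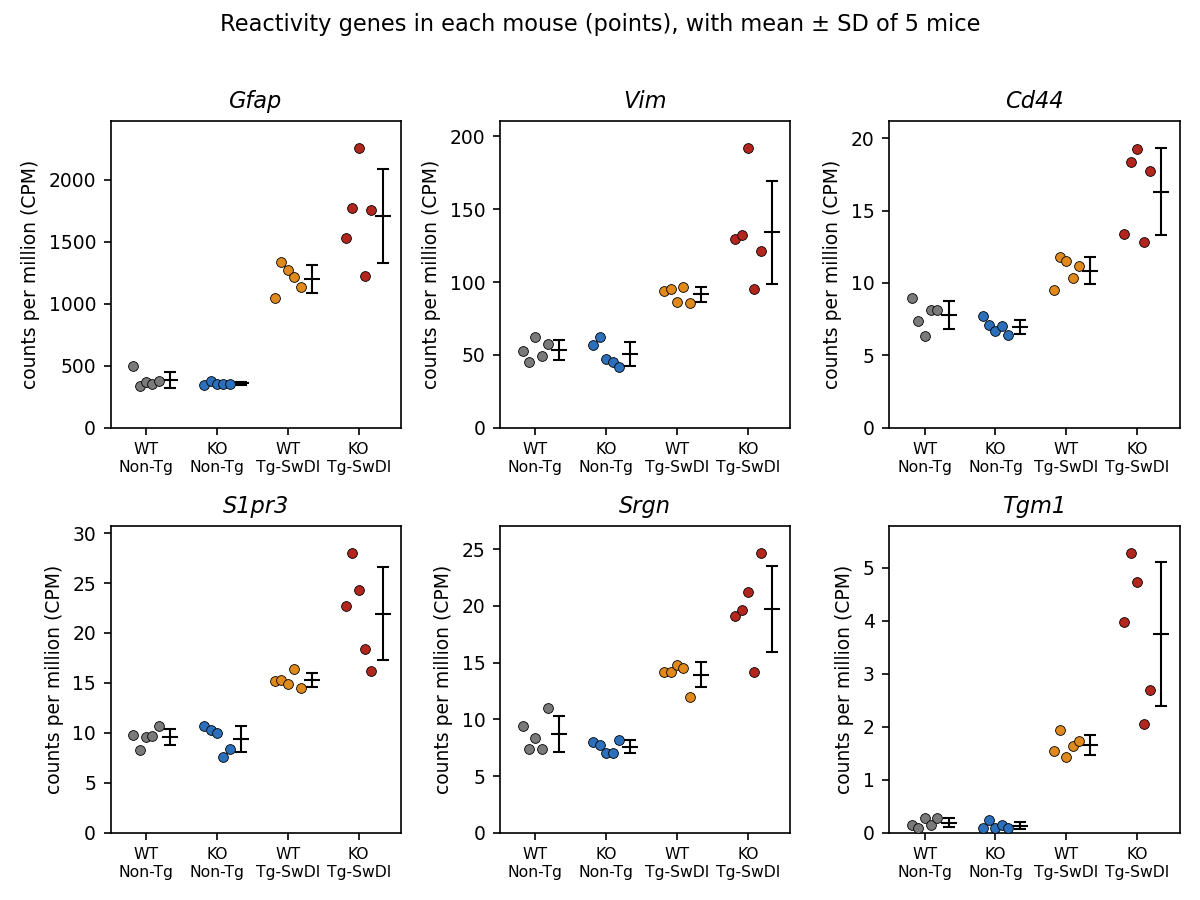
CPM (y axis, from 0) of Gfap, Vim, Cd44, S1pr3, Srgn and Tgm1 in each mouse (points) of the 4 groups (x axis), with mean ± SD of 5 mice beside the points. The Non-Tg groups lie together, WT Tg-SwDI mice lie above them, and most KO Tg-SwDI mice lie higher still, with a wider spread.

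From the A1 panel, Ggta1 and Srgn were called higher in both genotypes. Ggta1 (ENSMUSG00000035778.17, chr2:35400179-35463231, minus strand), a galactosyltransferase, was at 7.61, 4.66, 7.42, 6.197 and 7.54 CPM in WT Non-Tg mice and 5.93, 8.39, 6.03, 6.38 and 6.095 CPM in KO Non-Tg mice. It was at 13.1, 13.8, 11.5, 14.9 and 10.7 CPM in WT Tg-SwDI mice and 16.4, 19.7, 18.1, 14.8 and 14.2 CPM in KO Tg-SwDI mice, without overlap by transgene. The rise was 1.91-fold (FDR = 1.26e-05) in WT and 2.53-fold (FDR = 1.28e-08) in KO mice. Srgn (ENSMUSG00000020077.14, chr10:62493833-62527451, minus strand), the core protein serglycin, which is best known from immune cells, was at 9.41, 7.34, 8.31, 7.35 and 11.03 CPM in WT Non-Tg mice and 7.99, 7.78, 7.05, 7.004 and 8.18 CPM in KO Non-Tg mice. Tg-SwDI mice were at 14.1, 14.1, 14.8, 14.5 and 12.01 CPM (WT) and 19.1, 19.6, 21.2, 14.2 and 24.6 CPM (KO). The highest Non-Tg mouse was below the lowest Tg-SwDI mouse, and the rise was 1.601-fold (FDR = 0.000404) in WT and 2.59-fold (FDR = 2.62e-09) in KO mice. Fkbp5, a glucocorticoid-induced cochaperone, was at 49.5 ± 0.951 CPM in WT Non-Tg and 63.8 ± 13.8 CPM in WT Tg-SwDI mice and was called in no comparison.

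From the A2 panel, 1 of 8 genes was called in WT mice (Tgm1) and 2 in KO mice (Tgm1 and Clcf1), and the median log2 fold changes were 0.17 and 0.35. With 1 mouse left out, these medians ranged from 0.055 to 0.20 in WT and from 0.21 to 0.43 in KO mice. Without Tgm1 and Ptx3, which passed the filter only through Tg-SwDI mice, 0 of 6 were called in WT and 1 in KO mice, and the medians were 0.048 and 0.24. Those counts are near the shares of all genes tested that were higher, 3.94% in WT and 12.5% in KO mice. Tgm1 (ENSMUSG00000022218.15, chr14:55700009-55713926, minus strand), a transglutaminase that crosslinks proteins, was barely counted without the transgene, with 2 to 6 counts in each Non-Tg mouse. It was at 0.142, 0.0992, 0.282, 0.1499 and 0.286 CPM in WT Non-Tg mice and 0.0957, 0.237, 0.0965, 0.144 and 0.0967 CPM in KO Non-Tg mice. Tg-SwDI mice were at 1.55, 1.94, 1.42, 1.64 and 1.72 CPM (WT) and 3.98, 5.27, 4.74, 2.05 and 2.698 CPM (KO), with 29 to 101 counts each. Because Tgm1 passed the filter only through Tg-SwDI mice, its transgene effect is given from the fit without the filter, with a log2 fold change of 3.06 (edgeR FDR = 6.25e-11) in WT and 4.75 (FDR = 1.38e-18) in KO mice. Clcf1, a cytokine of the family that signals through Stat3, was at 0.758 ± 0.1701 CPM in KO Non-Tg and 1.49 ± 0.461 CPM in KO Tg-SwDI mice (log2 0.98, FDR = 0.00405), and it was not called with the choroid plexus covariate (FDR = 0.2000). The other 6 were called in no comparison. The membrane protein Emp1 was at 2.84 ± 0.2804 and 3.74 ± 1.002 CPM in WT and KO Tg-SwDI mice, the annexin partner S100a10 at 13.6 ± 1.33 and 14.5 ± 3.67 CPM, and the surface protein Cd109 at 9.39 ± 1.11 and 10.3 ± 2.49 CPM. The prostaglandin synthase Ptgs2, which hippocampal neurons also express, was at 29.5 ± 3.71 and 30.6 ± 2.301 CPM. The membrane protein Tm4sf1 was at 11.1 ± 0.943 and 12.3 ± 3.19 CPM, and the pentraxin Ptx3, with 1 to 17 counts per mouse, at 0.4903 ± 0.174 and 0.606 ± 0.184 CPM.

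Of the other reactivity genes, Id3, a repressor of differentiation factors, was called in KO mice, where it was at 22.1 ± 2.13 CPM in Non-Tg and 31.3 ± 4.57 CPM in Tg-SwDI mice (log2 0.50, FDR = 0.000805). In WT mice its log2 fold change was 0.29 (FDR = 0.121). Maob, monoamine oxidase B, and Nes, the filament nestin, were called in neither genotype, with log2 fold changes of 0.039 and -0.19 in WT and 0.15 and -0.16 in KO mice. Nes was the only member with a negative estimate beyond 0.1 in KO mice (95% interval -0.39 to 0.066).

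Other cell types moved with the transgene as well. The share of all genes tested that were higher with it was 3.94% in WT and 12.5% in KO mice. All 11 microglial markers and all 9 markers of plaque-associated microglia were called higher in both genotypes, although Cst7 of the second list passed the filter only through Tg-SwDI mice. The summed level of the 11, led by Csf1r, was 408 ± 43.8 (WT) and 388 ± 13.3 CPM (KO) without the transgene and 813 ± 62.2 (WT) and 1053 ± 118 CPM (KO) with it. The summed level of the 9, led by Spp1, was 94.1 ± 10.8, 84.7 ± 5.83, 525 ± 40.6 and 745 ± 102 CPM in the same order. No marker of either list was at 0 in a group. The part of microglial RNA in the rise of Vim, Cd44, Srgn and Ggta1 was not tested. Choroid plexus markers were called for 12 of 15 genes in KO mice and for 0 in WT mice. With their level as a covariate, 14 of the 35 genes were called in KO mice in place of 18, without Sox9, Timp1, Steap4 and Clcf1, and 15 in WT mice. Over all genes tested, that fit called 1014 higher and 129 lower in KO mice, in place of 2013 and 1338. In WT mice it called 625 higher and 65 lower. For KO mice, the choroid plexus level was 299.7 to 754 CPM in all 5 Non-Tg mice. Among KO Tg-SwDI mice it was 3409 CPM or more, except in replicate 2 (426 CPM). The covariate thus largely followed the transgene in KO mice, and the reason for the lost calls was not tested. Without KO Tg-SwDI replicate 8, 22 of the 35 genes were called in KO mice, beside 1904 of all genes tested higher and 1156 lower.

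**Figure D4:**
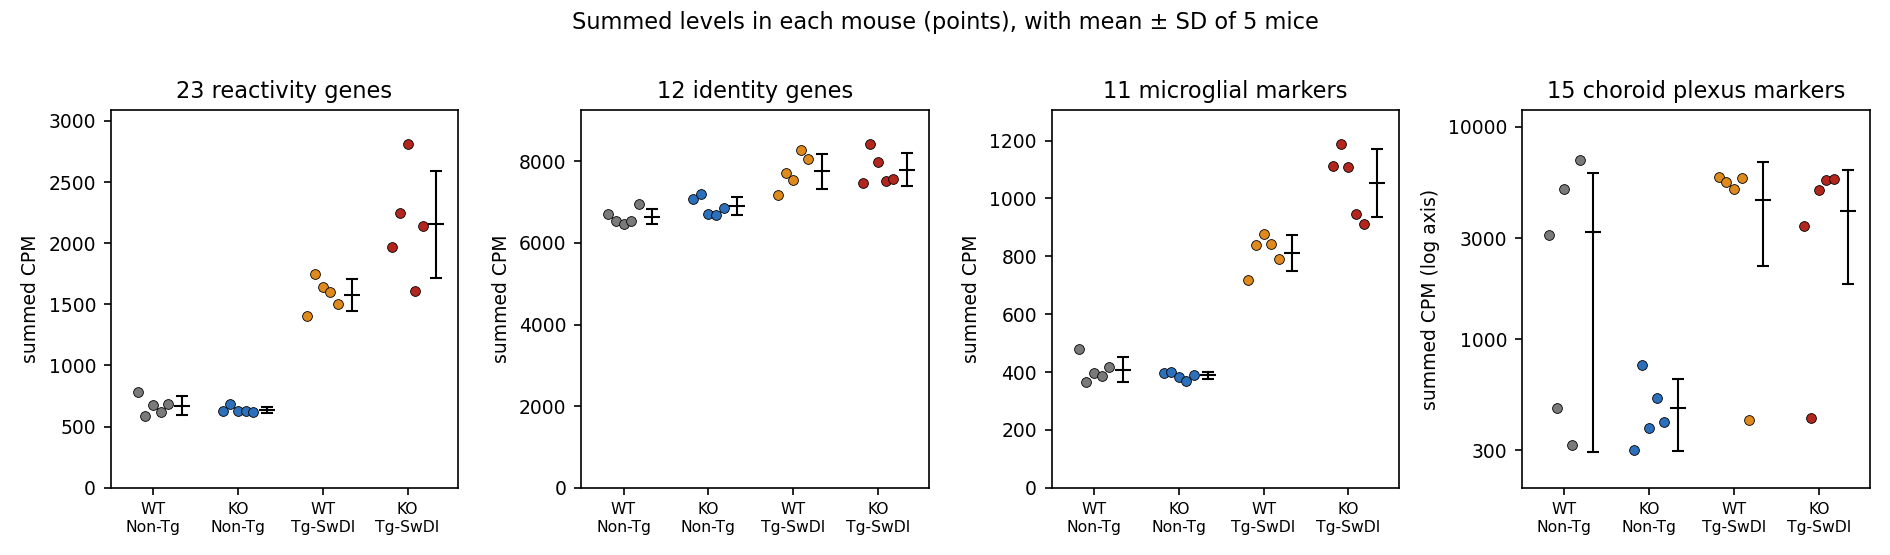
Summed CPM (y axes, the last one logarithmic) of the 23 reactivity genes, the 12 identity genes, 11 microglial markers and 15 choroid plexus markers in each mouse (points) of the 4 groups (x axis), with mean ± SD of 5 mice beside the points. Reactivity levels, most of which are Gfap, and microglial levels rise with the transgene, identity levels rise little, and choroid plexus levels vary within groups and are low in all KO Non-Tg mice.

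The miR-34a KO was compared with WT within Tg-SwDI mice, which asks whether loss of the microRNA changed the astrocyte genes in the presence of amyloid pathology. Of the 35 genes, 5 were called higher (Tgm1, Cd44, S1pr3, Srgn and Gfap) and 0 lower, against 1.48% of all genes tested higher and 0.503% lower. All 5 were reactivity genes, and the median log2 fold change of the 23 reactivity genes was 0.31, beside 0.0026 over all genes. Without the 4 genes that passed the filter only through Tg-SwDI mice, 4 of 31 genes were called higher and the reactivity median was 0.18. The KO and WT mice then did not overlap for 1 gene, Cd44. None of the 12 identity genes was called, and their median was 0.022 (-0.018 to 0.085 with 1 mouse left out). For Cd44 and Tgm1 the 5 KO mice were all above the 5 WT mice, which held for 2.04% of all genes.

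Tgm1 was 2.26-fold higher in KO Tg-SwDI mice (log2 1.18, standard error 0.21, edgeR FDR = 0.00635). Its lowest KO mouse, replicate 5, was just above the highest WT mouse. Cd44 was 1.502-fold higher (log2 0.59, standard error 0.11, FDR = 0.00654). Both calls held in 29 of 30 alternative settings, all but the model that blocked on replicate number.

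S1pr3 was 1.44-fold higher (log2 0.52, standard error 0.11, FDR = 0.0168), with KO replicate 8 inside the range of the WT mice. The call was lost without WT Tg-SwDI replicate 7 (FDR = 0.0594), in the 10 compared mice alone (0.0734) and with the replicate block (0.1297), and over the alternatives other than the block the FDR was 0.00139 to 0.0734. Srgn was 1.42-fold higher (log2 0.50, standard error 0.12, FDR = 0.0253), with KO replicate 5 inside the WT range. That call was lost without WT Tg-SwDI replicate 3 (FDR = 0.0553), WT Tg-SwDI replicate 7 (0.0821) or KO Tg-SwDI replicate 3 (0.0532), in the 10 compared mice alone (0.0880) and with the replicate block (0.403), and its FDR over the alternatives other than the block was 0.00411 to 0.08799.

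Gfap was 1.42-fold higher (log2 0.51, standard error 0.12, FDR = 0.0412), and its call was close to the threshold. KO replicate 5 lay inside the WT range and KO replicate 3 was the highest. The call held in 15 of 30 alternative settings, and the FDR over those other than the block was 0.00178 to 0.1201. It was lost without the filter on low counts, with library size alone, in the 10 compared mice alone, with the replicate block and with GC content and length trends removed. It was also lost without any of WT Tg-SwDI replicates 3, 5, 6 and 7, KO Tg-SwDI replicates 3 and 8, WT Non-Tg replicate 4 and KO Non-Tg replicates 4, 7 and 8. Without KO Tg-SwDI replicate 3 the log2 fold change was 0.39 (FDR = 0.0728), and without replicate 8 it was 0.50 (FDR = 0.0778).

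Several reactivity genes had estimates of similar size without a call. Vim differed by a log2 of 0.55 (95% interval 0.26 to 0.84, FDR = 0.0582) and Ggta1 by 0.38 (0.14 to 0.62, FDR = 0.0959). Osmr, by contrast, had an estimate of 0.18 (-0.062 to 0.42, FDR = 0.451). For Lcn2 the interval was wide, at -0.33 to 1.07 around 0.37. Among identity genes, Aqp4 differed by 0.30 (0.068 to 0.53, FDR = 0.179). Of the genes with a seed match, S1pr3 was called higher in KO Tg-SwDI mice, while Aqp4 and Slc1a2 (log2 -0.033, FDR = 0.792) were not called. Tgm1, Cd44, Srgn and Gfap, which were also called, held no match. In Non-Tg mice S1pr3 was at 9.59 ± 0.846 (WT) and 9.38 ± 1.31 CPM (KO). A part of the matches in these levels was not tested.

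Among microglial markers, 3 of 11, and 5 of the 9 plaque-associated ones, were also called higher with the KO among Tg-SwDI mice. That held for 1.48% of all genes tested. The summed levels of these markers are given above. Their part in the higher levels of Cd44, Srgn and the other genes was not tested. Choroid plexus markers had 0 of 15 called, and with their level as a covariate 6 of the 35 genes were called, Vim (FDR = 0.0431) added to the 5. That fit called 387 of all genes tested higher and 180 lower, in place of 239 and 81. Without KO Tg-SwDI replicate 8, 4 were called, beside 265 of all genes tested higher and 58 lower.

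In Non-Tg mice none of the 35 genes was called between KO and WT, and 0% of all genes tested were called. At an unadjusted p under 0.05 there were 3 of the 35, beside 8.08% of all genes tested, and edgeR's exactTest and DESeq2 called 0 of the 35. The median log2 fold change of the 23 reactivity genes was -0.075. The 95% intervals were -0.36 to 0.13 for Gfap, -0.38 to 0.067 for Cd44, -0.27 to 0.20 for S1pr3 and -0.44 to 0.050 for Srgn. For Tgm1 the interval was -1.49 to 0.49, since it rested on a few counts per mouse. Steap4 had the largest estimate, -1.55 (standard error 0.55, FDR = 0.529). The choroid plexus marker level was low in all 5 KO Non-Tg mice and in 2 of 5 WT Non-Tg mice.

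**Figure D5:**
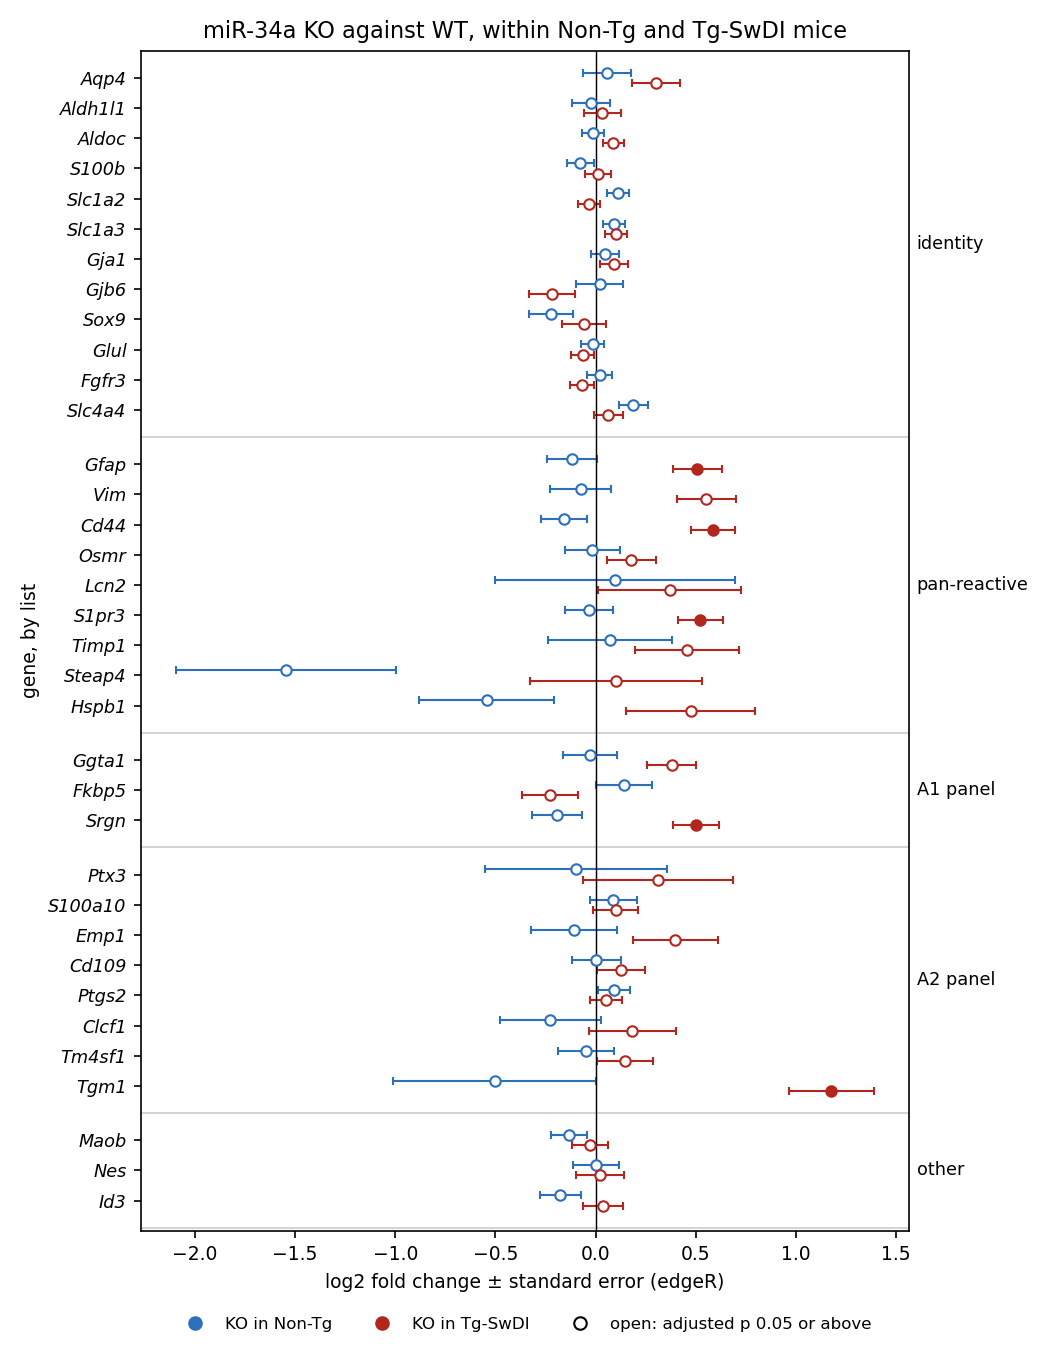
Log2 fold change of miR-34a KO over WT mice (x axis, points with standard errors from edgeR) for the 35 genes by list (y axis), in Non-Tg mice (blue) and Tg-SwDI mice (red). Filled points have an FDR under 0.05. The 5 filled points, Gfap, Cd44, S1pr3, Srgn and Tgm1, are all in Tg-SwDI mice and lie between 0.50 and 1.18.

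Whether the KO acted differently with and without the transgene was tested as an interaction, which equals the transgene effect in KO mice minus that in WT mice. Among the 35 genes, 1 was called, Cd44 (higher in 0.428% and lower in 0.18% of all genes tested). For Cd44 the interaction was 0.74 on the log2 scale (standard error 0.16, edgeR FDR = 0.0236), and the FDR over the alternatives other than the block was 0.00252 to 0.06804. The call was lost without any of WT Non-Tg replicate 2, KO Non-Tg replicates 4, 7 and 8, WT Tg-SwDI replicates 3 and 7 and KO Tg-SwDI replicate 3, where the estimate was 0.68 to 0.75. It was also lost with the replicate number as a block, and with the choroid plexus covariate (log2 0.79, FDR = 0.0568). Srgn (0.70, FDR = 0.0522), Gfap (0.63, FDR = 0.0938), S1pr3 (0.56, FDR = 0.101) and Tgm1 (1.68, FDR = 0.1301) had positive estimates that were not called. Without KO Tg-SwDI replicate 8, the library with the high mitochondrial share, 2 genes were called, Cd44 (FDR = 0.0256) and S1pr3 (log2 0.65, FDR = 0.0245). DESeq2 called Gfap (FDR = 0.0119), S1pr3 (FDR = 0.0413) and Srgn (FDR = 0.0101) beside Cd44. It called 482 of all 16107 genes tested, against 98 with edgeR. Srgn was also called without WT Non-Tg replicate 3 or 6 or KO Tg-SwDI replicate 2 or 5 (FDR = 0.0133 to 0.0371), without the filter (0.0301) and with a mean CPM of at least 1 (0.0491), and Gfap without KO Tg-SwDI replicate 5 (FDR = 0.0222). Tgm1 was called in none of these settings. The median interaction was 0.41 for the 23 reactivity genes and 0.38 for the 19 of them that did not pass the filter through Tg-SwDI mice alone. For the 12 identity genes it was 0.026 (-0.024 to 0.059 with 1 mouse left out).

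Related lists were read in the same fit. Of the 17 remaining genes of the pan-reactive, A1 and A2 panels, 15 were tested, and 4 were higher with the transgene in WT and 10 in KO mice. Over all genes tested, 3.94% were higher with the transgene in WT and 12.5% in KO mice. Cd14, the lipopolysaccharide coreceptor, which microglia express, rose by a log2 of 2.07 in WT (FDR = 5.78e-09) and 2.70 in KO mice (FDR = 2.47e-11). Serpina3n, a secreted protease inhibitor of reactive astrocytes, was at 52.6 ± 2.16, 50.5 ± 2.35, 145 ± 9.34 and 242 ± 66.01 CPM in WT Non-Tg, KO Non-Tg, WT Tg-SwDI and KO Tg-SwDI mice. It was higher with the KO among Tg-SwDI mice (log2 0.74, FDR = 0.00654), and its interaction was not called (0.80, FDR = 0.0505). Aspg, an asparaginase, rose by 1.57 and 2.18 with the transgene in WT and KO mice. Psmb8, a subunit of the immunoproteasome, rose by 0.69 and 1.65, and was higher with the KO among Tg-SwDI mice (log2 0.72, FDR = 0.0401).

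Of 26 further astrocyte genes, all tested, 6 were higher with the transgene in WT and 14 in KO mice, and 0 were lower. The share of all genes tested that were higher was also larger in KO mice (12.5%) than in WT mice (3.94%). Clu, the secreted chaperone clusterin, was at 1001 ± 78.9, 894 ± 41.7, 1236 ± 59.1 and 1429 ± 132 CPM in the 4 groups in the same order. Its interaction was called (log2 0.37, FDR = 0.0463), although its KO effect in Tg-SwDI mice was not (0.21, FDR = 0.0712). Choroid plexus is known to express Clu, and its part was not tested. The membrane protein Mlc1 (0.41), the potassium channel Kcnj10 (0.34) and the receptor Gpr37l1 (0.30) were higher with the transgene in KO mice on the log2 scale. Cbs, cystathionine beta-synthase, was the gene of this list that was lower in KO Tg-SwDI mice, at 23.9 ± 0.337 CPM against 29.6 ± 1.73 CPM in WT Tg-SwDI mice (log2 -0.31, FDR = 0.00635).

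Of 18 signals and regulators of reactivity, 15 were tested, and 7 were higher with the transgene in WT and 6 in KO mice, against 3.94% and 12.5% of all genes tested. The complement chains C1qa, C1qb and C1qc, made by microglia, rose by log2 values of 1.63, 1.46 and 1.58 in WT and 2.35, 2.29 and 2.29 in KO mice. C1qb and C1qc were also higher with the KO among Tg-SwDI mice (log2 0.53, FDR = 0.0144, and 0.48, FDR = 0.00922), and their interactions were called (both FDR = 0.0199). Stat3 rose by 0.31 (FDR = 0.00030) and 0.48 (FDR = 2.26e-07). Osm, the ligand of Osmr, was picked after its values were seen and passed the filter on low counts only through Tg-SwDI mice, so its values are a description. It was at 0.116 ± 0.0882, 0.125 ± 0.0725, 0.633 ± 0.198 and 0.671 ± 0.186 CPM in the 4 groups, from 0 to 17 counts per mouse. Without Osm, 6 of 14 genes of this list were called higher in WT and 5 in KO mice.

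Mice of a group differed from each other for several genes at once. In KO Tg-SwDI mice, replicate 3 was the highest of its group for 11 of the 23 reactivity genes and replicate 5 the lowest for 10. Summed over the 23 genes, replicate 3 was at 2808 CPM and replicate 5 at 1609 CPM, beside 1408 to 1749 CPM in the WT Tg-SwDI mice. Gfap made up most of this sum in every mouse, and the other 22 genes summed to 556 CPM in replicate 3 and 383 CPM in replicate 5, beside 365 to 413 CPM in the WT Tg-SwDI mice. WT Tg-SwDI replicate 7 was the lowest of its group for 12 of the 23, and WT Tg-SwDI replicate 4 the highest for 10. Among Non-Tg mice, WT replicate 3 was the lowest of its group for 13 of the 23. WT Non-Tg replicate 7 and KO Non-Tg replicate 2 were each the highest of their group for 10. For identity genes, WT Tg-SwDI replicate 3 was the lowest of its group for 9 of 12 and WT Non-Tg replicate 7 the highest for 8 of 12. The summed identity level ranged from 6476 to 8414 CPM over all 20 mice.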

How the data were processed

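The authors deposited raw read counts per ENSEMBL gene for 20 libraries of stranded mRNA, aligned to mm10 with STAR and counted with FeatureCounts without normalization. The strand setting and the treatment of reads matching several genes are not given in the sources used here. The genotype and transgene given in each label set the group. Symbols, positions and exon lengths came from GENCODE M21, which matched 38872 of 39056 identifiers. Counts were normalized by TMM, genes were kept by filterByExpr (minimum count 10, minimum total 15), and 1 robust quasi-likelihood model with a mean for each of 4 groups (16 residual degrees of freedom) was fitted in edgeR 4.0.16 (R 4.3.3, limma 3.58.1). P-values were adjusted by the Benjamini-Hochberg method over 16107 genes, with calls at an FDR under 0.05. CPM are scaled to the TMM-adjusted library size, and 95% intervals are from the standard errors. Totals of 19549622 to 21066868 counts limited the precision of genes with few counts. P-values measure the spread between mice.

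The members and lists were chosen with earlier results of these data known. A further microglial marker is not reported here, and its list was used without it. Values in every mouse are given for Gfap, Vim, Aqp4, Slc1a2 and the 10 further members called in the largest number of the 5 comparisons, with ties broken by the FDR of the transgene effect in KO mice. Up to 4 genes per related list with the lowest FDR in that comparison are named, and those with the lowest FDR for the KO in Tg-SwDI mice or the interaction. Alternatives were edgeR's exactTest, DESeq2 1.42.0, no filter, a mean CPM of at least 1, RLE factors, library size alone, the 10 compared mice alone, the replicate number as a block, the choroid plexus level as a covariate, removal of trends on GC content and length, and each mouse left out. The scripts were tested on simulated data.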

Additional observations from a re-analysis of the deposited data

Results flagged for a closer look

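For each of the 35 genes in each of the 4 groups (140 sets of 5 mice), the highest and lowest mouse was compared with the rest by Dixon's ratio, and 14 sets had a mouse that stood apart. Chance gives such a mouse in about 1 in 20 sets. KO Non-Tg replicate 2 was the highest of its group for Aldh1l1 (65.6 CPM), S100b (118 CPM), Slc1a3 (786 CPM), Gfap (379 CPM) and Ggta1 (8.39 CPM). KO Tg-SwDI replicate 3 was the highest for Timp1 (2.80 CPM), Hspb1 (17.6 CPM) and Emp1 (5.46 CPM). KO Tg-SwDI replicate 2 was the highest for Slc1a3 (909.7 CPM) and KO Tg-SwDI replicate 8, the library with the high mitochondrial share, for Sox9 (52.3 CPM). WT Non-Tg replicate 2 was the highest for Gfap (497 CPM) and WT Non-Tg replicate 7 for Glul (1677 CPM). WT Tg-SwDI replicate 3 was the lowest for Gja1 (163 CPM) and WT Tg-SwDI replicate 7 the lowest for Srgn (12.01 CPM). Cd44 is listed because the KO effect differed between Tg-SwDI and Non-Tg mice by 0.74 on the log2 scale in edgeR's interaction test (FDR = 0.0236).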

How the results depend on the processing

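No member's call changed direction in any alternative. The number of members called stayed within 1.5 times its value for the transgene in WT (12 to 19) and in KO mice (14 to 22). It stayed at 0 for the KO in Non-Tg mice. These ranges include the fits with 1 mouse left out. The calls over all genes tested varied more. For the transgene in WT mice they were 710, and 537 to 957 in the alternatives. In KO mice they were 3351, and ran from 1143 with the choroid plexus covariate to 4636 with GC content and length trends removed. For the KO in Tg-SwDI mice 5 were called, and 2 with the 10 compared mice alone, 0 with the replicate number as a block and 2 to 6 with 1 mouse left out. The lowest values there, 3, 2 and 3, came without WT Tg-SwDI replicate 3, WT Tg-SwDI replicate 7 and KO Tg-SwDI replicate 3. Over all genes tested, 320 were called for the KO in Tg-SwDI mice, 58 with the 10 compared mice alone and 8 with the block. For the interaction 1 was called, and 4 with DESeq2, 2 without the filter, 2 with a mean CPM of at least 1, 0 with the choroid plexus covariate, 0 with the replicate block and 0 to 3 with 1 mouse left out. The 4 with DESeq2 were Gfap, Cd44, S1pr3 and Srgn. Of all genes tested, the interaction called 98, and 482 with DESeq2, 123 without the filter and 142 with a mean CPM of at least 1. It called 13 with the choroid plexus covariate, 38 with the block and 14 to 500 with 1 mouse left out. The cause of these differences was not tested, except that the 10 compared mice and the left-out mice have fewer samples. The labels do not say what the replicate number stands for. Deviations of the 16 same-numbered pairs from different groups had a median correlation of -0.043, and 2 were over 0.1. For the 134 pairs of other numbers the median was 0.0085, and 36 were over 0.1. By this measure same-numbered mice were not closer than others. With the block, 14 members were called for the transgene in WT and 18 in KO mice. Members with few counts, such as Lcn2, Steap4, Ptx3, Timp1 and Tgm1, had the widest intervals.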

Other observations

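Marker lists of further cell types, chosen with earlier results of these data known, were read in the same fit, in which 12.5% of all genes tested were higher and 8.31% lower with the transgene in KO mice, and 3.94% higher and 0.466% lower in WT mice. In lists of 5 to 10 markers, 1 call in KO mice is near these shares. With the KO in Tg-SwDI mice, 1.48% of all genes tested were higher. Of 9 oligodendrocyte markers, 1 was higher with the transgene in WT and 5 in KO mice, and their summed level, led by Mbp, was 6252 ± 313 (WT) and 5629.8 ± 400.2 CPM (KO) without the transgene and 6574 ± 181 (WT) and 6769.8 ± 755 CPM (KO) with it (mean ± SD, n = 5). Of 10 endothelial markers, 1 was lower with the transgene in WT mice, 1 was higher in KO mice and 1 was higher with the KO in Tg-SwDI mice, and their summed level, led by Flt1, was 251 ± 19.8, 239.6 ± 13.5, 250.4 ± 22.6 and 264 ± 15.3 CPM in the same order. Of 7 mural markers, 1 was higher with the transgene in each genotype. Of 8 fibroblast and meningeal markers 0 were called, their median log2 fold changes were 0.43 for the KO in Tg-SwDI mice and -0.33 for the transgene in WT mice, and their summed level, led by Igf2, was 252 ± 106, 196 ± 78.1, 246 ± 78.3 and 294 ± 124 CPM in the same order. Of 6 ependymal and 5 oligodendrocyte precursor markers, 1 each was higher with the transgene in KO mice. Of 10 neuronal markers, led by Camk2a, 2 were lower with the transgene in KO mice and 0 were called elsewhere.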
